A study of Mus musculus with 4 samples.

Results

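The 4 Id gene loci of the mouse were examined in chromatin immunoprecipitation and sequencing (ChIP-seq) peak lists from neural progenitor-like cells. Members were all peaks whose summit lay in a fixed mm9 window: Id1 on chromosome 2 (152520000 to 152610000), Id2 on chromosome 12 (25700000 to 25860000), Id3 on chromosome 4 (135650000 to 135750000) and Id4 on chromosome 13 (48280000 to 48440000). These windows held 51 of the 125330 peaks on chromosomes 1 to 19 and X, with 27 of H3K4me2, 11 of Etv6, 8 of Pax6 and 5 of EGFP_OK. H3K4me2 is histone H3 carrying methyl groups at lysine 4 in the dimethyl form, found at promoters and enhancers that are active or poised. The other libraries were made with the M2 antibody, which binds the FLAG tag. Their titles name Pax6, a paired-box and homeobox factor of the eye and forebrain, and Etv6, a factor of the ETS family. The last FLAG title holds the words N31, EGFP and OK. The protein that carried the tag in it is not stated in its labels, and the library is called EGFP_OK.

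All libraries came from cells of strain 129/SvJ that had been differentiated from embryonic stem cells and were used between passages 15 and 18, grown with EGF and FGF-2 at 10 ng/ml each. NS stands in the titles of Pax6 and Etv6, whereas N31 stands in those of EGFP_OK and H3K4me2. The H3K4me2 title also has Oct4, EGFP and 0 hr. How the tagged factors were expressed, and whether NS and N31 are the same line, was not stated in the labels. Cell line and tagged protein therefore cannot be told apart where EGFP_OK differs from the others. The positions of Pax6 and Etv6 peaks inside or outside H3K4me2 refer to the mark in cells titled N31. Each group had 1 library and there was no control library, so no value below has a replicate error and no difference between libraries or loci could be tested.

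The Id proteins are helix-loop-helix proteins that lack the basic region needed to hold DNA. They pair with E proteins and so keep proneural basic helix-loop-helix factors from binding their targets, and they are known as direct targets of BMP and Smad signalling. In neural progenitors they are known to hold back differentiation. Id1 and Id3 act partly in each other's place in the embryonic forebrain, Id2 also binds the retinoblastoma protein, and Id4 sets the timing of differentiation in the cortex. In RefSeq (GRCm38.p6) the genes next to Id1 are Mcts2 and Cox4i2, those next to Id2 are Kidins220 and Rnf144a, those next to Id3 are Rpl11 and E2f2, and those next to Id4 are Rnf144b and Zfp169. Gene positions in mm9 were not used here, so peaks are given by position and not by exon, intron or promoter.

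RefSeq promoter sequences (GRCm38.p6) were matched for 3 of the 4 genes. The 250 bases before the start are shown because H3K4me2 was called in every window. Whether these bases lie under a peak was not determined. Capitals mark matches to GGCGCC, part of the BMP response element, and to CCAAT, read as ATTGG on the other strand.
Id2, minus strand: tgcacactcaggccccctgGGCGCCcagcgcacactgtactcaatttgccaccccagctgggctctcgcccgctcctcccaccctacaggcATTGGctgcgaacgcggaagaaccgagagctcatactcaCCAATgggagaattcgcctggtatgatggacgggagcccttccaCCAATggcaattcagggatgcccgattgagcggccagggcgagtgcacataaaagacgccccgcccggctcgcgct
Id3, plus strand: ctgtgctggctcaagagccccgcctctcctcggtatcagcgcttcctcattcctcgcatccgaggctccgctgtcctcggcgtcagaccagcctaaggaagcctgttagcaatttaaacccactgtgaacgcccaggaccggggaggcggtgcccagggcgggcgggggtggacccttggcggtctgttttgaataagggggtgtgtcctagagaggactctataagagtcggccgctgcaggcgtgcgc
Id4, plus strand: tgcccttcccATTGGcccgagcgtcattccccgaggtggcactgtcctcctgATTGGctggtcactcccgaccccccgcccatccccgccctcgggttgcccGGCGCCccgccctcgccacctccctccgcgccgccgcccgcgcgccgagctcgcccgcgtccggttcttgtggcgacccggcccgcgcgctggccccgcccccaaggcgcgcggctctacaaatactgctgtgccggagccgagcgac
All 3 were rich in the dinucleotide CG, with 18 in Id2, 18 in Id3 and 35 in Id4, against a median of 6 over the 32851 promoters of the table. GGCGCC was found once in the Id2 and once in the Id4 promoter, and 9.59% of all promoters held it on either strand. CCAAT was found at 3 positions in Id2 and 2 in Id4, and 33.8% of promoters held it. None of the 3 held CCGGAA (a longer form of the ETS core, in 12% of promoters), TTCACGC (part of the Pax6 paired domain motif, 1.03%), ATGCAAAT (the octamer, 1.60%) or TATAAA (12.4%). The shorter ETS core GGAA was not searched, so a lack of ETS sites cannot be read from this. Both strands were searched and no matches overlapped each other.

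The libraries differed less in sequenced tags than in the tags kept. Total tags were 27560633 for Pax6, 35255051 for EGFP_OK, 31059965 for Etv6 and 29371583 for H3K4me2. Of these, 81%, 39%, 22% and 16% were redundant. After removal of duplicates, 5288154 tags were kept for Pax6, 21498324 for EGFP_OK, 24071748 for Etv6 and 24550365 for H3K4me2. The weakest called peak held 10 tags in the Pax6 list, 17 in H3K4me2, 18 in Etv6 and 19 in EGFP_OK. A place without a called peak was therefore not detectable at this depth and threshold, which is not the same as unoccupied. Intervals for tags are exact Poisson and those for shares are exact (Clopper-Pearson), both at 95%. Both cover only counting error, and peaks close to each other are not independent.

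The loci differed in their counts within the windows as set. The Id1 and Id3 windows held most of the Etv6 and Pax6 peaks, EGFP_OK peaks were called only at Id1 and Id4, and the Id2 window held only 1 FLAG peak. The windows differ in length, from 90 kb at Id1 to 160 kb at Id2 and Id4. Per 100 kb, EGFP_OK had 2.22 peaks at Id1 and 1.87 at Id4. With windows widened by 50% on both sides, EGFP_OK had 1 peak at Id2 and 1 at Id3. Id2 then held 4 Etv6 and 2 Pax6 peaks, so these absences depended on the window limits. Each count was set beside all tiles of the same length along the genome. Id1 held 6 Etv6 peaks, and 1.73% of 90-kb tiles held at least as many. Its 7 H3K4me2, 3 Pax6 and 2 EGFP_OK peaks were reached by 3.98%, 5.71% and 26.5% of tiles. The 3 Pax6 peaks lay on the flanks of the Id1 window, since its central 50% held 0 of them. That part held 3 Etv6, 3 H3K4me2 and 1 EGFP_OK peaks, and evenly spread peaks would leave about 50% there. With lists cut to the 16604 highest-scoring peaks each, Id1 held 3 Pax6, 3 Etv6, 2 H3K4me2 and 1 EGFP_OK peaks. Its Etv6 and H3K4me2 counts thus rested partly on lower-scoring calls, as did the whole lists. The cut kept 16604 of all 30931 Etv6 and 16604 of all 49457 H3K4me2 peaks, so the losses at Id1 were near those of the lists. Id3 held 11 H3K4me2 peaks, a number reached by 0.281% of 100-kb tiles. In the central 50% of the window there were 5, and with lists of equal length 3. Its 4 Pax6 and 4 Etv6 peaks were reached by 2.65% and 10.4% of tiles, and it held 0 EGFP_OK peaks, where 52.1% of tiles held at least 1.

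Id4 held 6 H3K4me2 and 3 EGFP_OK peaks, which 22.2% and 28.7% of 160-kb tiles reached. It held 1 Etv6 and 0 Pax6 peaks, and 56% and 45.5% of tiles held at least 1 of these. Id2 held 3 H3K4me2 peaks, a number reached by 43.1% of 160-kb tiles. It held 1 Pax6 peak, 0 Etv6 peaks and 0 EGFP_OK peaks, and 62.6% of tiles held at least 1 EGFP_OK peak. The tiles include regions without genes, so these shares describe the genome and not other gene loci.

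The stretches of equal length on either side of each window gave a nearer reference. Around Id3, H3K4me2 had 5 peaks before and 4 after the window against 11 within it, and Pax6 had 0 before and 0 after against 4. Around Id1, Etv6 had 3 before and 3 after against 6, and Pax6 had 1 before and 1 after against 3. Around Id2 the direction was the other way for Etv6 and Pax6, with 3 Etv6 peaks before and 4 after against 0 in the window, and 2 and 3 Pax6 peaks against 1. This did not hold for the other libraries there, since EGFP_OK had 3 before, 0 after and 0 within, and H3K4me2 had 5 before, 0 after and 3 within. EGFP_OK in the Id4 window, with 3 peaks, had 3 before and 2 after.

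**Figure D1:**
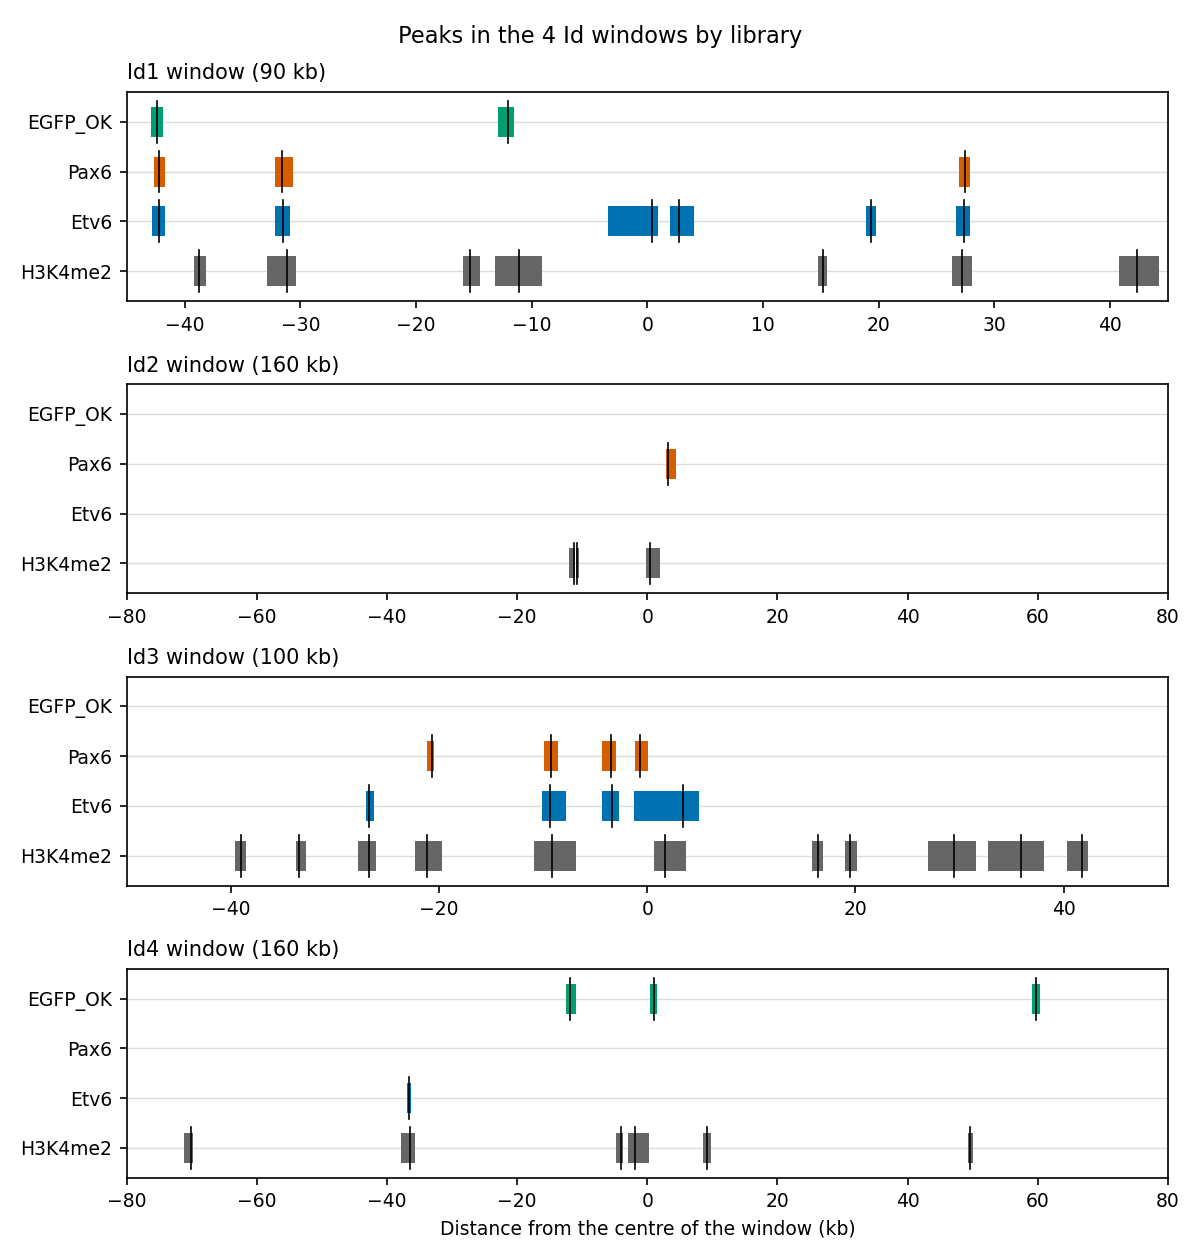
Positions of all 51 peaks in the 4 windows, with distance from the window's centre in kb on the horizontal axis and the library on the vertical axis. Boxes are peaks to scale and black lines their summits; Id1 and Id3 carry stacked Pax6 and Etv6 boxes, Id4 carries 3 EGFP_OK boxes and Id1 carries 2, and Id2 is nearly empty of FLAG peaks.

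**Figure D2:**
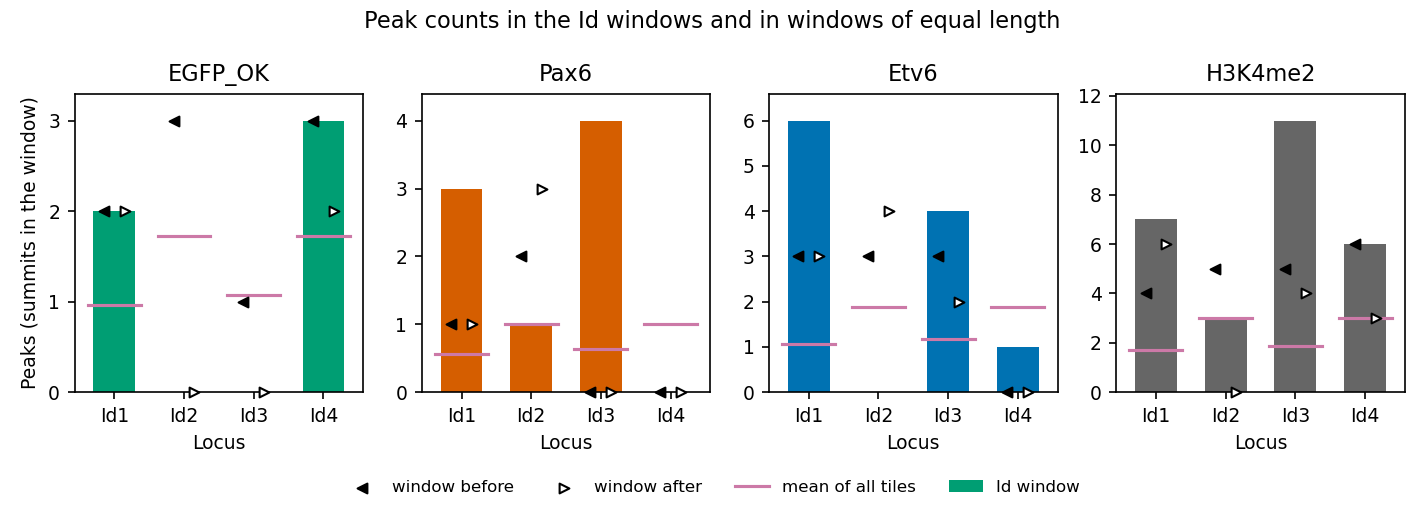
Number of peaks (vertical axis) per Id locus (horizontal axis) in each library, 1 panel per library with its own scale. Bars are the Id windows, filled and open triangles the windows of equal length before and after, and pink lines the mean of all tiles; H3K4me2 at Id3 reached 11 against 5 and 4.

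At Id1, Pax6 and Etv6 met at 3 places, and EGFP_OK was at 1 of them. The first place, near the left end of the window, was the only one of the 4 windows with peaks of all 3 FLAG lists. It held 31 EGFP_OK tags (152522085 to 152523101, 6.32-fold), 17 Pax6 tags (152522374 to 152523316, 13.8-fold) and 54 Etv6 tags (152522208 to 152523334, 5.68-fold). The fold is the authors' ratio of summit height to background around the peak in the same library, so it was compared only within a list. Their summits, at 152522636, 152522762 and 152522744, lay within 126 bp of each other. They were 2734 to 2860 bp outside the nearest H3K4me2 peak. These were weak to middling calls, at rank 22801 of 28338 in EGFP_OK, 8338 of 16604 in Pax6 and 19704 of 30931 in Etv6 by score, which is 10 times the −log10 of the caller's p.

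The other places shared by Pax6 and Etv6 at Id1 were inside H3K4me2. The highest-scoring Pax6, Etv6 and H3K4me2 peaks of the window coincided at 152532095 to 152534586. There H3K4me2 had 293 tags at 11.6-fold and ranked 2065 of 49457, higher than any other H3K4me2 peak of the 4 windows. Etv6 had 74 tags at 6.05-fold (152532769 to 152534067) and Pax6 had 25 tags at 9.33-fold (152532828 to 152534332), with summits 121 bp apart. At the place on the right side of the window, H3K4me2 had 127 tags at 7.53-fold (152591342 to 152593036), Etv6 69 tags at 8.61-fold and Pax6 15 tags at 9.95-fold. The Pax6 and Etv6 summits there were 53 bp apart.

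The remaining Id1 FLAG peaks stood alone among the FLAG lists. The highest-scoring EGFP_OK peak of the window, with 60 tags at 6.06-fold (152552131 to 152553494), lay in a 4094-bp H3K4me2 peak with 303 tags at 3.56-fold. Near the centre of the window, Etv6 had a 4366-bp peak with 323 tags at 3.88-fold (152561564 to 152565929) and a 2087-bp peak with 148 tags at 3.46-fold (152566922 to 152569008). These adjoining Etv6 peaks, singled out after their values were seen, lay in a 23.8-kb stretch with no called H3K4me2 peak, from 152555924 to 152579717. Their summits were 9479 and 11804 bp from the nearest H3K4me2 peak. No Pax6 peak was called on them. At the ratio of kept tags, 0.220, they would correspond to 71.0 and 32.5 Pax6 tags, above the 10 of the weakest called Pax6 peak, although the tags a call needs also depend on the background around it. A narrower Etv6 peak with 39 tags at 6.88-fold (152583872 to 152584744) would correspond to 8.57 by the same ratio. The median Pax6 to Etv6 tag ratio over all overlapping peaks of these lists was higher, 0.290. The corresponding Pax6 tags therefore depend on the ratio chosen.

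At Id3, Pax6 and Etv6 also met at 3 places, side by side from 135689909 to 135704929, and EGFP_OK at none. The first of these was inside H3K4me2. It carried the highest-scoring Etv6 peak of the window, with 124 tags at 4.97-fold (135689909 to 135692199), and a Pax6 peak with 20 tags at 7.86-fold (135690079 to 135691435). The H3K4me2 peak there was 4074 bp wide with 432 tags at 3.88-fold (135689083 to 135693156). The Pax6, Etv6 and H3K4me2 summits, at 135690791, 135690671 and 135690857, lay within 186 bp.

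The next place at Id3 had the highest-scoring Pax6 peak of the window, with 34 tags at 6.82-fold (135695676 to 135697010). Etv6 had 124 tags at 4.91-fold there (135695614 to 135697260), with its summit 35 bp from that of Pax6. Neither summit was in H3K4me2, whose nearest peak was 3390 bp from the Pax6 summit and 3425 bp from the Etv6 summit. At the last place the overlap was of a different kind. A Pax6 peak with 34 tags at 5.69-fold (135698827 to 135700100) lay at the edge of a 6240-bp Etv6 peak with 368 tags at 3.07-fold (135698690 to 135704929), and the summits were 4165 bp apart. Only 7 of the 30931 Etv6 peaks were wider, and 44 had a lower fold. The H3K4me2 peak under it had 397 tags at 2.37-fold (135700622 to 135703742), and only 5 of 49457 H3K4me2 peaks had a lower fold.

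The other Id3 members were mostly H3K4me2 without a FLAG summit. The highest-scoring H3K4me2 peak of the window, with 256 tags at 5.15-fold (135677699 to 135680310), held a Pax6 summit from a peak of 11 tags at 11.9-fold. An Etv6 peak of 34 tags at 8.42-fold (135672976 to 135673750) lay in the H3K4me2 peak with 165 tags at 6.46-fold, 58 bp from its summit. The tag-richest H3K4me2 peaks of all 4 windows, with 569 tags (135726977 to 135731579) and 591 tags (135732731 to 135738137), lay to the right and held no FLAG summit. In all, H3K4me2 peaks covered 27.9% of the Id3 window, against 16.7% at Id1, 6.16% at Id4 and 2.24% at Id2.

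At Id4 the FLAG peaks were nearly all of EGFP_OK. The highest-scoring, with 167 tags (95% interval 143 to 194) at 18.1-fold (48347449 to 48348962), ranked 225 of 28338 in its list, higher within its list than any other of the 51 peaks. It lay 6974 bp from the nearest H3K4me2 peak, and no Pax6 or Etv6 peak overlapped it. The other EGFP_OK peaks had 53 tags at 10.2-fold (48360467 to 48361555) and 47 tags at 9.07-fold (48419187 to 48420366). Their summits were 842 and 9739 bp outside H3K4me2, so none of the 3 was in the mark.

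The single Etv6 peak at Id4 had 28 tags at 5.36-fold (48323004 to 48323720) and was a weak call, at rank 22759 of 30931. It lay in the highest-scoring H3K4me2 peak of the window, which had 203 tags at 7.20-fold (48322164 to 48324323), with the summits 144 bp apart. At the ratio of kept tags it would correspond to 6.15 Pax6 tags, under the weakest called Pax6 peak. The other H3K4me2 peaks of the window included a 3262-bp peak with 319 tags at 3.32-fold (48356997 to 48360258). It ended just before the EGFP_OK peak of 53 tags, and no FLAG summit was in it.

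At Id2, 4 peaks were found in 160 kb. The highest-scoring H3K4me2 peak had 50 tags at 9.97-fold (25767993 to 25768887), with a smaller peak of 30 tags beside it (25768982 to 25769538). The widest, 2126 bp with 141 tags at 4.29-fold, lay at 25779809 to 25781934. The only FLAG peak of the window was of Pax6, with 38 tags (26.9 to 52.2) at 4.39-fold (25782799 to 25784353), 1242 bp beyond that H3K4me2 peak. It held more tags than any other Pax6 peak of the 4 windows, yet only 22 of 16604 Pax6 peaks had a lower fold.

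Over the 4 windows, the FLAG lists met at 6 places and stood alone at 11. Of the 8 Pax6 peaks, 6 had an overlapping Etv6 peak, 75% (34.9 to 96.8), against 72.6% of the whole Pax6 list. In the other direction 6 of 11 Etv6 peaks had a Pax6 peak, 54.5% (23.4 to 83.3), against 38.9% of the list. Of the 5 EGFP_OK peaks, 1 had a Pax6 peak and the same 1 an Etv6 peak, 20% (0.505 to 71.6), against 11.7% and 20.9% of the list. From the other side, that was 1 of 8 Pax6 peaks (20.1% in the list) and 1 of 11 Etv6 peaks (19.2%). Each of the whole-list shares lay inside the interval of the Id share, so no difference from the lists was detectable with so few peaks. The calls were modest, and so was the whole Pax6 list, with a median score of 73.1. Every Pax6 peak of the windows scored between 51.17 and 97.82, so none of the shared places passed a score minimum of 100 in both lists. Pax6 and Etv6 summits lay within 100 bp of each other at 3 of the 6, against 60.5% of all matched pairs.

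At 5 of the 6 places shared by Pax6 and Etv6, the interval of their tag ratio held the ratio of the libraries' kept tags. The ratio of kept tags was 0.220, and the median over all 12050 matched peaks was 0.290, with 80% of pairs between 0.163 and 0.510. At Id1 the ratios were 0.315 (0.171 to 0.551), 0.338 (0.206 to 0.538) and 0.217 (0.115 to 0.384). At Id3 they were 0.161 (0.0952 to 0.260), 0.274 (0.182 to 0.404) and 0.0924 (0.0630 to 0.131). The first Id3 interval held 0.220 but lay below 0.290, with a Pax6 peak of 1357 bp and an Etv6 peak of 2291 bp. The last interval was below both references, but there the Etv6 peak was 6240 bp wide and the Pax6 peak 1274 bp, so the sums cover unlike regions. Per kb of peak that place had 26.7 Pax6 tags and 59.0 Etv6 tags, a ratio of 0.453, and the direction turned: this is above the per-kb median of all matched peaks, 0.366. No lower Pax6 signal at that place can therefore be read from the sums. At the other places the ratio per kb was 0.376, 0.292 and 0.284 at Id1 and 0.272 and 0.338 at Id3. The second Id1 place also turned, from 0.338, above 0.290, to 0.292, below 0.366. The first Id3 place was below the median by both measures.

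**Figure D3:**
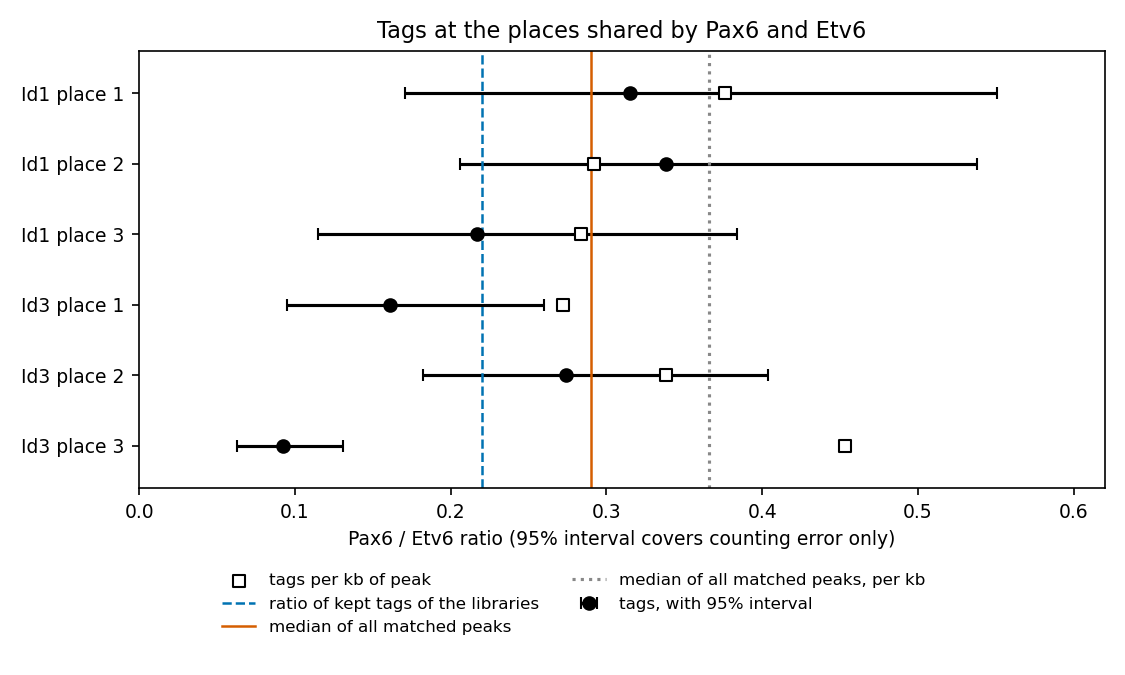
Pax6 to Etv6 ratio (horizontal axis) at the 6 places where peaks of both lists overlapped (vertical axis, numbered from the left of each window). Filled points are tags over whole peaks with 95% intervals for counting error, open squares are tags per kb, and lines are the ratio of kept tags (dashed, 0.220) and the medians of all matched peaks for tags (solid, 0.290) and per kb (dotted, 0.366); the third Id3 place, with peaks of 1274 and 6240 bp, moves from 0.0924 to 0.453.

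To relate the FLAG peaks to marked chromatin, their summits were placed on H3K4me2. The mark was mapped in cells titled N31, whereas Pax6 and Etv6 were mapped in cells titled NS. Whether the mark lay at the same places in the NS cells was not measured if the lines differ. Of the 24 FLAG summits, 11 were inside an H3K4me2 peak. These were 6 of 11 for Etv6, 54.5% (23.4 to 83.3), against 51.9% of the list, and 4 of 8 for Pax6, 50.0% (15.7 to 84.3), against 43.7%. For EGFP_OK it was 1 of 5, 20% (0.505 to 71.6), against 26.9%. The 13 summits outside the mark were near it, with 4 of 4 for EGFP_OK, 4 of 4 for Pax6 and 4 of 5 for Etv6 within 10 kb of an H3K4me2 peak. In the lists 36%, 39% and 43.2% of the unmarked summits were this near, and each of the 4 windows held H3K4me2 peaks.

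Seen from H3K4me2, 8 of the 27 peaks held a FLAG summit, 29.6% (13.8 to 50.2), against 40.3% of the list. Etv6 summits were in 6 (31.9% in the list), Pax6 summits in 4 (14.5%), EGFP_OK summits in 1 (15.3%) and summits of all 3 in 0 (4.01%). By locus these were 4 of 11 at Id3, 3 of 7 at Id1, 1 of 6 at Id4 and 0 of 3 at Id2. The H3K4me2 peaks with a FLAG summit were 1695 to 4094 bp wide, with 127 to 432 tags, and those without were 557 to 5407 bp wide, with 30 to 591 tags. The median width was 2552 bp with and 1137 bp without, and the ranges overlapped. A wider peak has more room for a summit, and the counts were not adjusted for width.

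Some of the Id peaks were rich in tags but low in fold, which was clearest for Etv6. This pattern was noticed in the values and is given as a description. Among the 51 peaks, 13 belonged to the lowest 10% of their own list by fold, with 6 at Id3, 5 at Id1, 1 at Id2 and 1 at Id4. By library they were 7 of 27 H3K4me2 peaks (10.1% in the list), 3 of 11 Etv6 peaks (10.1%), 3 of 8 Pax6 peaks (11%) and 0 of 5 EGFP_OK peaks (10%). The intervals of these shares were 11.1 to 46.3% for H3K4me2, 6.02 to 61.0% for Etv6 and 8.52 to 75.5% for Pax6. Those of Etv6 and Pax6 held the list share, and that of H3K4me2 lay just above it. Of the 13, 11 had more tags per kb than the median of their list. How many of all low-fold peaks in the lists did so was not computed, so this count cannot be read as a trait of the Id peaks. Peaks above the median tag density and below the median fold were 7 of 11 for Etv6, 63.6% (30.8 to 89.1), against 16.4% of the list. For Pax6 they were 3 of 8, 37.5% (8.52 to 75.5), against 20.6%. For H3K4me2 they were 9 of 27, 33.3% (16.5 to 54.0), against 24.7%, and for EGFP_OK 1 of 5, 20% (0.505 to 71.6), against 14.5%. For this class, only the Etv6 interval did not hold the share of its list. The class was set after the values were seen and some of these Etv6 peaks adjoin, so the interval is no test of a difference.

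Widths were compared in the same way. Wider than 3 kb were 7 of 27 H3K4me2 peaks, against 14.4% of the list, and 2 of 11 Etv6 peaks, against 1.21%. There were 0 such peaks for Pax6 (0.307%) and 0 for EGFP_OK (0.861%). The median Etv6 peak of the windows had 55.4 tags per kb and 5.36-fold, against 46.8 and 6.26-fold in the list. For H3K4me2 the medians were 70.9 tags per kb and 5.51-fold, against 68.9 and 5.82-fold. The Pax6 medians were 17.3 tags per kb and 8.60-fold, against 19.2 and 10.6-fold, and those of EGFP_OK were 44.0 and 9.07-fold, against 40.7 and 7.04-fold. Since the caller set each peak against tags of the same library within 10 kb, a wide tag-rich region enters its own background. How far that lowered the folds here was not tested.

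**Figure D4:**
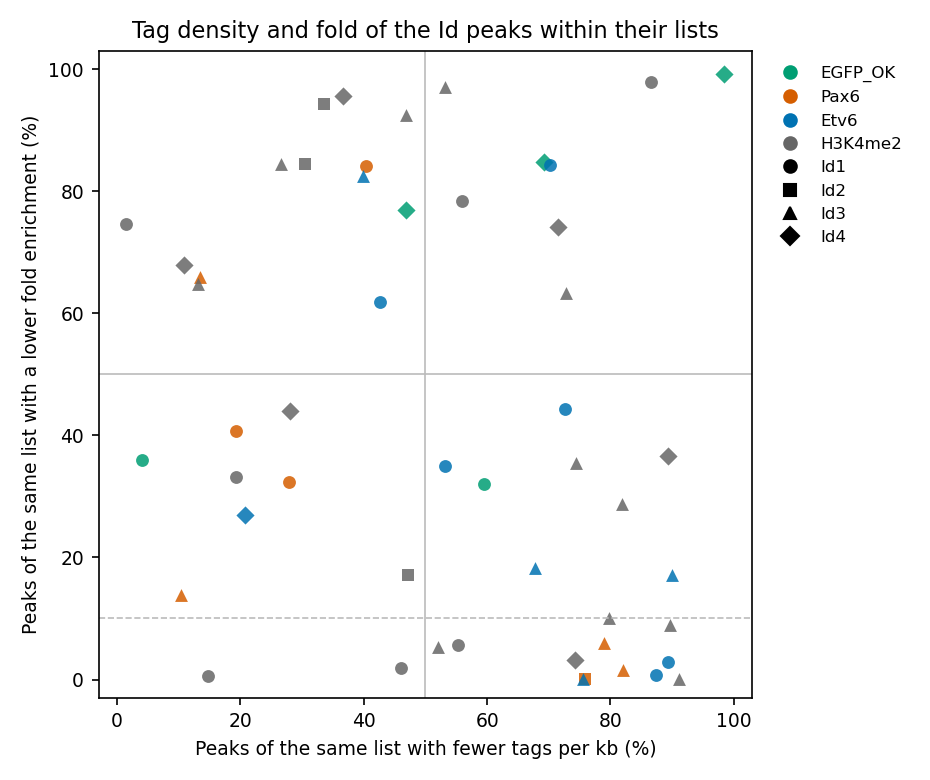
Place of each of the 51 peaks within its own list, as the percentage of the list with fewer tags per kb (horizontal axis) and with a lower fold (vertical axis). Colours are libraries, shapes are loci, solid lines the list medians and the dashed line the lowest 10% by fold; 11 of the 13 peaks under the dashed line are to the right of the median density (list share not computed), and the EGFP_OK peak of Id4 is at the upper right.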

How the data were processed

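Peaks were called by the authors with MACS 1.4.2 on each library alone, per the file headers, with no control, a p cutoff of 1e-05, a regional background of 10 kb and duplicates reduced to 1 tag per position. The submitters' processing notes also name CASAVA 1.8.1, BWA 0.6.2 and mm9. Per the file headers, the deposited values are the count of tags per peak, a score (10 times the −log10 of the p-value) and a fold enrichment, the ratio of summit height to background around it. Fixation was with 1% formaldehyde for 10 min and chromatin was sheared to 200 to 500 bp, per the labels' protocols. Each group held 1 library.

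Lists were analysed with scipy 1.17.1, pandas 2.3.3 and numpy 2.4.6 under Python 3.11.15. Only chromosomes 1 to 19 and X were used (38 EGFP_OK, 42 Pax6, 53 Etv6 and 111 H3K4me2 peaks elsewhere were left out). A summit is the start plus the summit offset minus 1. Overlap meant at least 1 bp. Tiles ran from the first base to the last peak of any list on each chromosome. The overlap and tile counts were checked on simulated lists. Named in full were the highest-scoring peak of each library and each place with peaks of several FLAG lists, per window. The members and lists were chosen with earlier results of these data known, and the fold and density description was added after the values were seen. Alternatives were a score minimum of 100, equal list lengths, other window limits, other overlap rules, ranking by fold and shifted tiles. Tag ratios per kb were added after the values were seen. Cell type markers were not checked, since peaks were not assigned to genes.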

Additional observations from a re-analysis of the deposited data

How the results depend on the processing

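The number of Id peaks depended on the score minimum, the list length and the window limits. With a score of at least 100, 3 of 5 EGFP_OK, 0 of 8 Pax6 and 3 of 11 Etv6 peaks remained. That minimum was above the median score of each whole FLAG list, 92.8 for EGFP_OK, 73.1 for Pax6 and 93.3 for Etv6. Much of each FLAG list was therefore lost as well, since a score of 99.63 ranked 12952 of 28338 in EGFP_OK. A score of 97.82 ranked 4422 of 16604 in Pax6, and 99.39 ranked 14178 of 30931 in Etv6. The H3K4me2 list had a median score of 171, above the minimum. With each list cut to its 16604 highest-scoring peaks, Etv6 had 6 of 11 and H3K4me2 6 of 27. The cut kept 16604 of 30931 peaks in the whole Etv6 list and 16604 of 49457 in that of H3K4me2. In the central 50% of each window the counts were 3 for EGFP_OK, 5 for Pax6, 7 for Etv6 and 15 for H3K4me2. In windows widened by 50% on both sides they were 12 for EGFP_OK, 10 for Pax6, 23 for Etv6 and 45 for H3K4me2. Widening adds as much sequence as each window held, so evenly spread peaks would also rise in number. With a FLAG score of at least 100, 0 Pax6 and 3 Etv6 summits were in H3K4me2. With summits required to lie within 100 bp, Pax6 and Etv6 shared 3 places and EGFP_OK shared 0 with Pax6 and 0 with Etv6. With the score minimum of 100 applied to both lists, all these pairs shared 0, and with equal list lengths EGFP_OK shared 0 with either. Ranked by fold, the highest peak was the same in 5 of the 12 cases of a window and library with a peak. Shifting the tiles by 50% of their length moved none of the 16 shares beyond its 95% interval. No paired analysis was possible because each group had 1 library. The Pax6 calls rest on 11 to 38 tags each, so their counts are the least certain.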
